A study of Mus musculus with 24 samples.

Results

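Mast cells are long-lived immune cells of skin and other linings, and they also lie in the sheaths of nerves and ganglia. They store granules of proteases and histamine, carry the high-affinity IgE receptor, and depend on the growth factor receptor Kit. Transcripts of 9 genes that mark them were followed here in hind paw, in the ganglia of the sensory nerves (dorsal root ganglia, DRG) and in lumbar spinal cord. The paw had been injected with an agonist antibody against LTβR, the lymphotoxin beta receptor, which belongs to the tumour necrosis factor receptors. The 9 genes are a list of symbols, set without a threshold on their values, and all 9 were among the 22609 gene symbols counted in each of 24 libraries. Cpa3 (carboxypeptidase A3), Cma1 and Mcpt4 (both chymases) and Tpsb2 and Tpsab1 (both tryptases) encode granule proteases. Kit encodes the receptor for stem cell factor, Fcer1a and Ms4a2 encode the alpha and beta chains of the IgE receptor, and Hdc encodes histidine decarboxylase, the enzyme that makes histamine. Kit is also known from melanocytes and neurons, and Hdc from neurons and myeloid cells.

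The mice were C57 males of 8 to 12 weeks, and every injection, made into the sole of the hind paw (intraplantar), held 10 µg of antibody. Control tissue was taken 1 day after IgG, day-1 tissue 1 day after a single dose of the agonist, and day-6 tissue after 2 doses. Each of these 3 groups had 3 libraries in paw (punch biopsies) and in DRG (levels L3 to L5) of the injected side, and spinal cord had 3 day-1 and 3 day-6 libraries, with no IgG group used here. The day-6 mice thus differ from the rest by dose number as well as time, and the labels disagree on whether the 6 days count from the first or the last dose. The labels do not say whether each library came from its own animal, so the p-values below measure the spread between these libraries, which may be technical.

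Each paw library held 24228438 to 41037458 reads that were counted in genes, each DRG library 21562694 to 34244912 and each spinal cord library 15685843 to 26285770. The punch biopsies varied in muscle: 20 skeletal muscle genes summed to 303 CPM (counts scaled to the size of each library) in paw control 1 and lay between 7272 and 53910 CPM elsewhere in paw. For DRG control 1, 31.5% of the uniquely placed reads fell on no annotated gene, against at most 13.8% in the other 8 DRG libraries. Levels below are CPM normalised within a tissue, with the SD over 3 libraries. In such bulk samples, fewer cells of a type and less RNA per cell cannot be told apart.

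The genes in each protease pair are relatives, and 50-base reads must tell them apart. Over their coding sequences Tpsb2 and Tpsab1 were identical at 66.7% of aligned positions, gaps included, with a longest shared run of 39 bases, and Cma1 and Mcpt4 were 61.2% identical, with a longest shared run of 27 bases. The most alike stretch of 60 bases of each pair, shown because the reads of these pairs are compared below, is given from the GENCODE transcripts of mouse chromosomes 17 and 14, with the bases that differ within a pair in capitals.
Tpsb2: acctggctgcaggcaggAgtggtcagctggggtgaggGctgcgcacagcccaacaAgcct
Tpsab1: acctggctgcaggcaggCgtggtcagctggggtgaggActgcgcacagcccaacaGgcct
Cma1: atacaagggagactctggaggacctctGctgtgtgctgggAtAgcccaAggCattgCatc
Mcpt4: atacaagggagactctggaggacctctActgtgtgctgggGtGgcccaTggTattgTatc
The tryptase stretches differ at 3 of 60 bases and the chymase stretches at 6. No 50-base window of the Tpsb2 or Tpsab1 transcript was found in any other gene's transcripts. Of the windows of Cma1, 5.46% were shared with the gene model Gm48934, and of those of Mcpt4, 5.48% were shared with Cma2 or Mcpt9, which had at most 3 and 0 counts in any library of paw.

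The promoters of Cma1, Mcpt4 and Cpa3 are shown because these granule proteases are set side by side within libraries below. They are the 250 bases before the start of each gene in RefSeq (build GRCm38.p6), read along the strand of the gene. Capitals mark a GATA word, which is here the word AGATAA, the word AGATAG, the word TGATAA or the word TGATAG on either strand; GATA2, a transcription factor needed by mast cells, is known to bind such words.
Cpa3, chr3:20242182-20242431, minus strand: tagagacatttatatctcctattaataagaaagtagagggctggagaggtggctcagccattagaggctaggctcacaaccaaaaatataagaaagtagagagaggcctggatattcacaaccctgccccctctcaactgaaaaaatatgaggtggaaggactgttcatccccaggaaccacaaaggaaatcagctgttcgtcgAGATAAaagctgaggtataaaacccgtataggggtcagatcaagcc
Cma1, chr14:55944676-55944925, minus strand: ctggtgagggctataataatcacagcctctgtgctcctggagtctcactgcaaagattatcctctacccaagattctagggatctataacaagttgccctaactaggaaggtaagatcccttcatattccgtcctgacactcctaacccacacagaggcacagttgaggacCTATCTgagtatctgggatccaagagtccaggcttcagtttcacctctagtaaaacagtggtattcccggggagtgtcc
Mcpt4, chr14:56062311-56062560, minus strand: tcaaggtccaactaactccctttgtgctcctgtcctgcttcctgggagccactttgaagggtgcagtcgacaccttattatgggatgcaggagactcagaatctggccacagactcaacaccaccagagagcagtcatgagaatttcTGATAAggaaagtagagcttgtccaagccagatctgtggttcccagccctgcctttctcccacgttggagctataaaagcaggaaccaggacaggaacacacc
The word starts 46 bases before the start of Cpa3, 79 before that of Cma1 and 103 before that of Mcpt4. Tpsb2 and Tpsab1 were not searched. Hdc and Fcer1a held 1 such word each in the same window and Ms4a2 held 3, while Kit held none. Over all 32851 promoters of the same length, 26.5% held at least 1. An E-box of the kind MITF binds, CATGTG or CACGTG on either strand, was found in the Fcer1a window, 208 bases before the start, and in none of the windows of the other 6 genes searched, against 17.6% of all promoters. None of the E-box and GATA matches overlapped each other. These are matches of letters and not measured binding.

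In the IgG controls the mast cell proteases were higher in paw than in DRG. Mcpt4 measured 14.9, 8.47 and 7.98 CPM in the 3 paw controls and 2.02, 2.84 and 1.96 CPM in the 3 DRG controls. Cma1 measured 13.0, 7.77 and 6.60 CPM in paw against 1.03, 1.64 and 2.03 CPM in DRG, and Cpa3 measured 12.9, 6.50 and 5.46 CPM against 1.78, 2.51 and 3.06 CPM. For all 3 genes every paw control lay above every DRG control. These levels were normalised within each tissue, and the share of all genes without such overlap was not counted. In the edgeR quasi-likelihood fit of both tissues, with Benjamini-Hochberg adjustment over 16461 genes, the log2 difference of paw from DRG was 2.54 ± 0.34 for Cma1 (SE, adjusted p = 5.07e-06), and that of Tpsab1 was 3.09 ± 0.55 (adjusted p = 8.94e-05). Mcpt4 (2.22), Ms4a2 (1.94), Cpa3 (1.77) and Tpsb2 (1.44) were higher in paw too, whereas Kit was lower by a log2 difference of -0.89 ± 0.24 (edgeR, adjusted p = 0.00356). Fcer1a (0.88 ± 0.89) and Hdc (0.88 ± 0.67) did not pass the threshold of 0.05. Thus 7 of 9 genes passed, 6 of them higher in paw, in a comparison where 81.5% of all tested genes passed and 39.9% were higher in paw. limma voom and DESeq2 also called 7 of the 9, beside 81.1% and 81.9% of all genes, and 7 had an unadjusted p under 0.05 beside 82.6%.

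**Figure D1:**
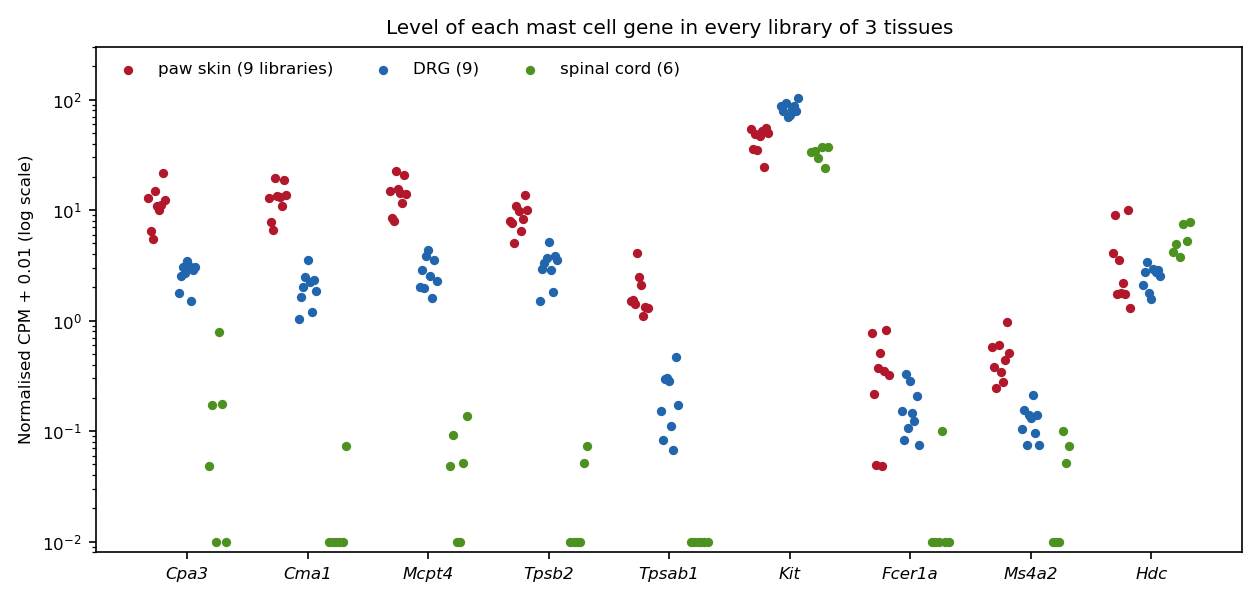
Normalised CPM of each of the 9 genes in every library (points) of paw, DRG and spinal cord, all treatment groups together, on a log axis after adding 0.01. Kit and Hdc were counted in every library of all 3 tissues, while the 5 proteases and both IgE receptor chains were at or near 0 in spinal cord.

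Per kilobase of transcript, Mcpt4 led in the paw controls with 9.42 ± 3.47 CPM per kb (SD, n = 3). Kit (8.88 ± 1.85), Cma1 (8.49 ± 3.16), Tpsb2 (6.21 ± 1.46) and Cpa3 (5.72 ± 2.79) followed, each overlapping its neighbour in this order. Hdc reached 2.09 ± 1.58, Tpsab1 1.28 ± 0.05, Ms4a2 0.386 ± 0.163 and Fcer1a 0.337 ± 0.381 CPM per kb; Tpsab1 lay above Ms4a2 in every control, and the IgE receptor chains overlapped. In the DRG controls the order was another one. Kit stood at 16.8 ± 1.37 CPM per kb, above everything else, and Tpsb2 (2.31 ± 0.85), Mcpt4 (2.05 ± 0.44), Cpa3 (1.69 ± 0.44), Cma1 (1.46 ± 0.47) and Hdc (1.15 ± 0.26) overlapped from one to the next. Fcer1a, Tpsab1 and Ms4a2 were at 0.179, 0.145 and 0.100 CPM per kb, on 10 counts or fewer per control library. The reads of Kit per read of Mcpt4 ranged from 1.52 to 6.11 over the 9 paw libraries and from 16.7 to 54.9 over the 9 DRG libraries, so that the 2 tissues did not overlap.

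Mrgprb1 was counted in every paw library (2.91 to 6.44 CPM) and so was Mrgprb2 (0.926 to 2.19 CPM), a receptor through which peptides activate mouse mast cells. In DRG they reached 0.340 to 0.815 and 0.129 to 0.328 CPM, and in spinal cord both had 0 counts. Of 20 other mast cell genes tested, edgeR called 15 higher in the paw controls than in the DRG controls and 2 lower. Over all genes it called 39.9% higher in paw. Gata2, also known from mast cells, did not follow the proteases into spinal cord. It measured 5.72 to 11.3 CPM in paw and 10.5 to 15.3 CPM in spinal cord. The mucosal mast cell proteases Mcpt1 and Mcpt2 had 1 and 0 counts over all 9 paw libraries. The basophil proteases Mcpt8 and Prss34 stayed low in paw, where 5 basophil markers summed to 0.201 to 1.30 CPM.

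In paw, the question was whether the agonist shifted these genes at 1 or 6 days. None of the 9 passed the test on either day, although the granule proteases other than Tpsab1 had higher means than the controls on both. The 5 proteases together summed to 26.5 to 50.3 CPM in the controls, 46.0 to 72.5 CPM on day 1 and 43.1 to 76.4 CPM on day 6. Control 1 lay inside the range of both agonist groups, and controls 2 and 3, with 32.0 and 26.5 CPM, lay below every agonist library. In the same libraries 7 basal keratinocyte genes summed to 6960 to 10440 CPM in the controls, 5576 to 5906 CPM on day 1, below every control, and 5259 to 7346 CPM on day 6. Of these 7, edgeR and limma voom called 0 on either day, DESeq2 called 1 on day 1 and 0 on day 6, and 5 and 4 had an unadjusted p under 0.05. Over all genes the shares were 1.37% and 3.33% by DESeq2, and 10.6% and 9.74% at the unadjusted p. The part of keratinocytes in the protease values was not tested.

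The chymases moved together from library to library. Mcpt4 measured 14.9, 8.47 and 7.98 CPM in the controls, 22.9, 15.7 and 14.3 CPM on day 1, and 11.7, 20.9 and 13.9 CPM on day 6. Control 1 overlapped both agonist groups. The log2 fold change of Mcpt4 was 0.76 ± 0.31 (SE) on day 1 and 0.57 ± 0.31 on day 6 (adjusted p = 0.452 and 0.630 by edgeR's quasi-likelihood test, Benjamini-Hochberg adjusted). Cma1 measured 13.0, 7.77 and 6.60 CPM in the controls, 19.6, 13.5 and 13.1 CPM on day 1, and 11.0, 18.8 and 13.8 CPM on day 6. Its day-1 libraries all lay above the controls, the nearest pair by little, and its day-6 libraries overlapped them. The log2 fold changes of Cma1 were 0.76 ± 0.30 on day 1 (edgeR, adjusted p = 0.441) and 0.67 ± 0.30 on day 6 (adjusted p = 0.516). Within a library the reads of Cma1 per read of Mcpt4 ranged only from 0.828 to 0.991 over all 9 paw libraries, while Mcpt4 itself ranged from 7.98 to 22.9 CPM.

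Cpa3, which trims peptides after the chymases have cut them, measured 12.9, 6.50 and 5.46 CPM in the controls, 15.0, 10.9 and 10.0 CPM on day 1, and 11.1, 21.6 and 12.4 CPM on day 6. Both agonist groups overlapped control 1, and day-6 library 2 was the highest of all 9. The log2 fold change of Cpa3 was 0.53 ± 0.37 on day 1 (edgeR, adjusted p = 0.578) and 0.86 ± 0.37 on day 6 (adjusted p = 0.499). Relative to Mcpt4 in the same library, Cpa3 gave 0.657, 0.694 and 0.702 reads per read on day 1 and 0.944, 1.03 and 0.888 on day 6, with 0.870, 0.767 and 0.685 in the controls. The day-1 and day-6 ratios did not overlap each other, and the controls overlapped both.

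Paw control 1, the biopsy with little muscle, had the highest value of Cpa3, Cma1, Mcpt4 and Tpsb2 among the controls. Without it, the day-1 log2 fold changes were 1.02 for Cpa3, 1.12 for Cma1 and 1.12 for Mcpt4, and the day-6 values were 1.37, 1.05 and 0.96, with 0 of the 9 genes called in either comparison. With a muscle score as a covariate and all libraries kept, the day-1 values of Cpa3, Cma1 and Mcpt4 were 1.05, 1.13 and 1.13, again with 0 called. The muscle sums were 19150 to 53910 CPM on day 1 and 7272 to 29350 CPM on day 6, and all 3 groups overlapped. Apart from these fits, the part of muscle in the protease values was not tested.

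The tryptases did not follow one course. Tpsb2, the more abundant one, measured 8.05, 7.69 and 5.07 CPM in the controls, 10.9, 9.86 and 6.46 CPM on day 1, and 8.26, 13.8 and 10.1 CPM on day 6. Day 1 overlapped the controls and day 6 lay above them, by 0.21 CPM at the nearest pair. The log2 fold changes were 0.39 ± 0.27 on day 1 (edgeR, adjusted p = 0.579) and 0.63 ± 0.27 on day 6 (adjusted p = 0.498). Tpsab1, for which C57 black mice are known to carry a splice defect, measured 1.49, 1.52 and 1.41 CPM in the controls, 4.10, 2.48 and 2.10 CPM on day 1, and 1.09, 1.32 and 1.30 CPM on day 6. All 3 day-1 libraries lay above all controls, and all 3 day-6 libraries lay below them. For Tpsab1 the log2 fold change was 0.98 ± 0.28 on day 1 (edgeR, adjusted p = 0.364) and -0.25 ± 0.28 on day 6 (adjusted p = 0.877).

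Between day 6 and day 1 the log2 fold change of Tpsab1 was -1.23 ± 0.27, with an adjusted p of 0.0825 by edgeR. It was -1.21 by limma voom (adjusted p = 0.0358) and -1.23 by DESeq2 (adjusted p = 0.0074), so that both of these tools called it, as they did 4.61% and 4.82% of all genes. Over the alternatives that kept every library, its adjusted p ranged from 0.0074 to 0.167. Without day-1 library 1, which held 146 of the 275 day-1 counts, the difference was -0.87 (edgeR, adjusted p = 0.260). Per read of Tpsb2, Tpsab1 gave 0.375, 0.252 and 0.325 reads on day 1 and 0.132, 0.0957 and 0.129 on day 6, with 0.185, 0.198 and 0.279 in the controls. The day-6 ratios lay below all others, and the day-1 ratios overlapped control 3.

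**Figure D2:**
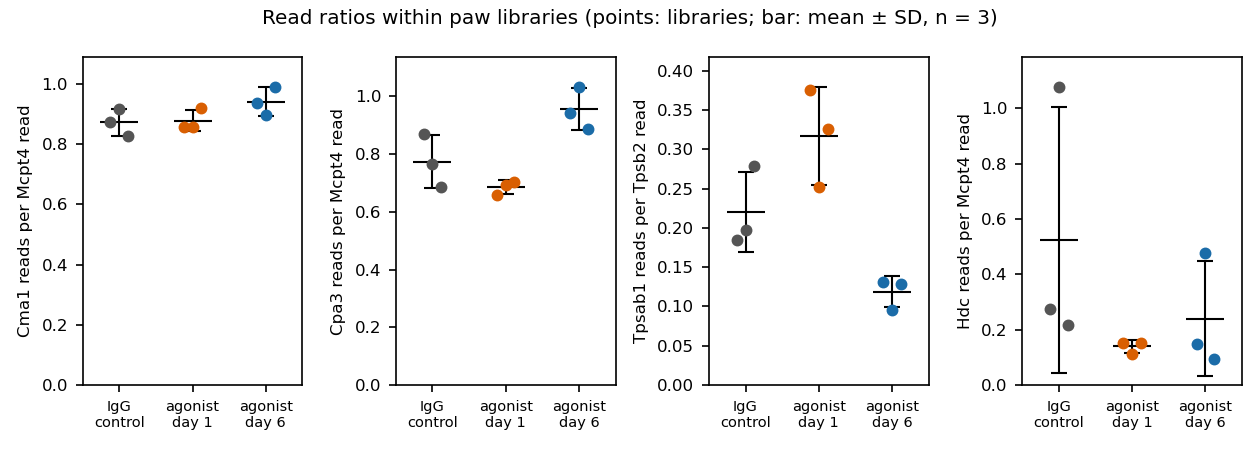
Reads of one gene per read of another within each paw library (points), with the mean and SD of 3 libraries per group. The ratio of Cma1 to Mcpt4 stays between 0.828 and 0.991, the ratio of Tpsab1 to Tpsb2 is lowest in the 3 day-6 libraries, and the ratio of Hdc to Mcpt4 reaches 1.08 in control 2.

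The IgE receptor chains were at the limit of what these libraries can measure. Fcer1a had 19, 5 and 1 counts in the controls, 13, 15 and 1 on day 1, and 12, 36 and 10 on day 6. Ms4a2 had 14, 9 and 6 counts in the controls, 21, 10 and 7 on day 1, and 15, 42 and 16 on day 6. Both chains were highest in day-6 library 2, which also had the highest Cpa3, and the groups overlapped. The log2 fold changes on day 6 were 0.57 ± 0.90 for Fcer1a and 0.70 ± 0.48 for Ms4a2 (edgeR, adjusted p = 0.934 and 0.749), and those on day 1 were -0.12 ± 0.96 and 0.05 ± 0.50. The standard error of Fcer1a on both days was larger than either chymase's log2 fold change.

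Kit, by contrast, was well counted and did not separate the groups. It measured 54.4, 35.7 and 48.8 CPM in the paw controls, 34.8, 47.3 and 52.5 CPM on day 1, and 24.8, 56.0 and 49.6 CPM on day 6. The lowest Kit values were those of day-6 library 1 and day-1 library 1, and day-1 library 1 was the library with the highest chymases. The log2 fold changes of Kit were -0.05 ± 0.30 on day 1 and -0.09 ± 0.30 on day 6 (edgeR, adjusted p = 0.952 and 0.977). Melanocytes are another cell type known to carry Kit in skin. Their 7 markers summed to 6.49 CPM in day-1 library 1 and 5.03 CPM in day-6 library 1, the lowest values of the 9 libraries. In the others the sums were 7.17 to 8.34 CPM, with 7.36 CPM in control 2, whose Kit level of 35.7 CPM was close to that of day-1 library 1. The part of melanocytes in the level of Kit was not tested.

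Hdc had the widest spread, relative to its level, of the genes with at least 1 CPM in every paw library. It measured 4.11, 9.13 and 1.73 CPM in the controls, 3.51, 1.78 and 2.18 CPM on day 1, and 1.74, 9.97 and 1.30 CPM on day 6. Control 2 and day-6 library 2 stood apart, and the remaining 7 libraries lay between 1.30 and 4.11 CPM. For Hdc the log2 fold change was -0.995 ± 0.869 on day 1 and -0.19 ± 0.85 on day 6 (edgeR, adjusted p = 0.635 and 0.987). Without control 2 the day-1 value was -0.23 and the day-6 value was 0.58, and without day-6 library 2 the day-6 value was -1.70. Hdc gave 0.0938 to 1.08 reads per read of Mcpt4 over the 9 libraries, the widest ratio of the well-counted genes.

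**Figure D3:**
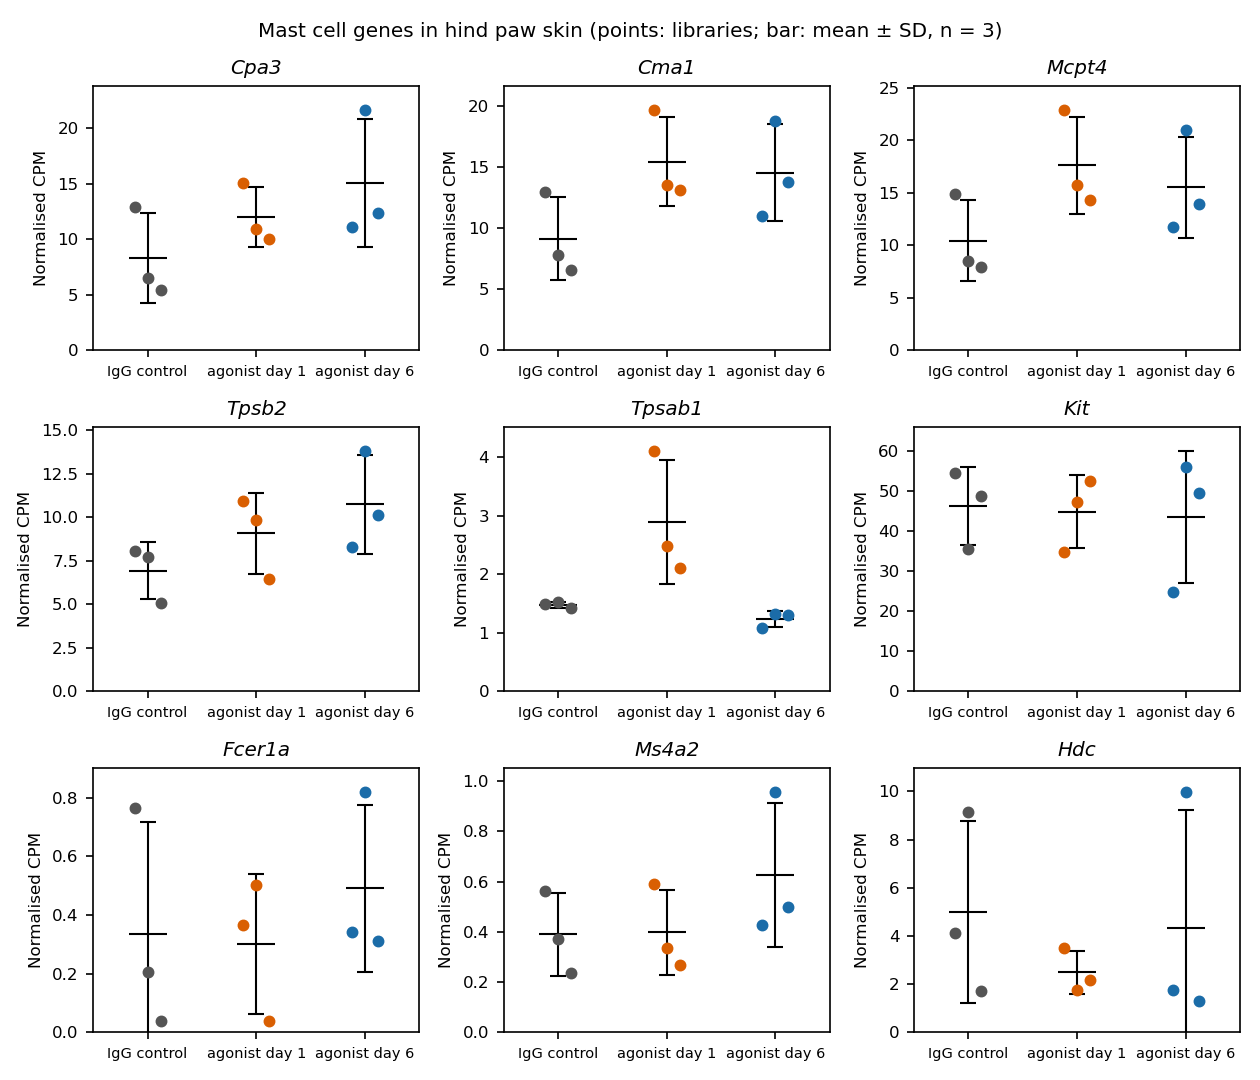
Normalised CPM of the 9 genes in the 9 paw libraries (points), with the mean and SD of 3 libraries per group; SD bars that would reach below 0 end at the axis. Tpsab1 is highest in the 3 day-1 libraries, Cma1 lies above the controls on day 1, and Hdc is high in 1 control and 1 day-6 library.

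Counted over the 9 genes, edgeR called 0 on day 1, where it called 0.00654% of 15287 genes, and 0 on day 6, where it called 0.706%. limma voom also called 0 of the 9 on both days, beside 0.00654% and 1.00% of all genes, and so did DESeq2, beside 1.37% and 3.33%. At an unadjusted p under 0.05 there were 3 on day 1 (Tpsab1, Cma1 and Mcpt4) beside 10.6% of all genes, and 2 on day 6 (Cpa3 and Tpsb2) beside 9.74%. For day 6 against day 1 edgeR called 0 beside 1.03% of all genes, with 1 (Tpsab1) at an unadjusted p under 0.05 beside 14.0%, and limma voom and DESeq2 called 1. Groups did not overlap for 2 genes that were higher on day 1 (6.40% of all genes) and 1 that was higher on day 6 (8.22%). Tpsab1 alone was lower without overlap on day 6, both against the controls (5.87% of all genes) and against day 1 (9.57%). The median log2 fold change of the 9 genes was 0.39 on day 1 and 0.57 on day 6, against 0.01 and -0.01 for all tested genes. Both agonist groups share the same 3 controls, so the days are not independent of each other.

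In DRG, 6 of the 9 genes passed the filter on low counts, and none passed the test on either day. Cma1 measured 1.03, 1.64 and 2.03 CPM in the controls, 2.48, 3.50 and 2.21 CPM on day 1, and 1.18, 2.33 and 1.86 CPM on day 6. Every day-1 library lay above every control, and day 6 overlapped both. Cma1 had a log2 fold change of 0.79 ± 0.31 on day 1 (edgeR, adjusted p = 0.594) and 0.17 ± 0.31 on day 6 (adjusted p = 0.995), on 22 to 115 counts per library.

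Mcpt4, Tpsb2 and Cpa3 also had their highest group mean in DRG on day 1, with overlap. Mcpt4 measured 2.02, 2.84 and 1.96 CPM in the controls, 3.85, 4.32 and 2.55 CPM on day 1, and 1.61, 3.51 and 2.28 CPM on day 6. Tpsb2 measured 1.50, 2.91 and 3.32 CPM, then 3.72, 5.17 and 2.89 CPM, then 1.81, 3.84 and 3.52 CPM. Cpa3 measured 1.78, 2.51 and 3.06 CPM, then 2.71, 3.44 and 3.09 CPM, then 1.49, 2.89 and 3.03 CPM. The highest value of each was in day-1 library 2. Their day-1 log2 fold changes were 0.65 ± 0.30 for Mcpt4, 0.59 ± 0.36 for Tpsb2 and 0.32 ± 0.27 for Cpa3 (edgeR, adjusted p = 0.669, 0.792 and 0.899), and their day-6 values were 0.11, 0.23 and -0.0033. Together with Tpsab1, the 5 proteases summed to 6.48 to 10.7 CPM in the controls, 10.9 to 16.7 CPM on day 1 and 6.14 to 13.0 CPM on day 6. Among markers of other cells, those of macrophages, fibroblasts and basal and differentiated keratinocytes had higher mean sums in the same day-1 libraries. So did meningeal genes and markers of central neurons and oligodendrocytes. The mean sums of sensory neuron, melanocyte, basophil, blood and skeletal muscle markers were lower on day 1 than in the controls. The 10 macrophage markers summed to 121 to 151 CPM in the controls and 163 to 166 CPM on day 1, without overlap. Of these, edgeR called 1, and 7 had an unadjusted p under 0.05, beside 0.168% and 7.40% of all genes. All 10 fibroblast genes had positive log2 fold changes, 0 of them called by edgeR, limma voom or DESeq2 and 5 at an unadjusted p under 0.05, with sums of 3433 to 4845 CPM in the controls and 4703 to 4862 CPM on day 1. The part of these cells in the protease values was not tested. The lowest protease sum of the controls was that of control 1, the library with many reads outside genes; without it, the day-1 log2 fold change of Cma1 was 0.57 (edgeR, adjusted p = 0.972).

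Kit was abundant in DRG, a tissue of sensory neurons, some of which are known to express it. It measured 88.1, 79.8 and 94.0 CPM in the controls, 70.3, 72.0 and 82.3 CPM on day 1, and 88.2, 79.0 and 103 CPM on day 6. Day-1 libraries 1 and 2 were the lowest of the 9, and the groups overlapped. For Kit the log2 fold change was -0.22 ± 0.10 on day 1 (edgeR, adjusted p = 0.680) and 0.05 ± 0.10 on day 6, and between day 6 and day 1 it was 0.27 ± 0.10 (adjusted p = 0.654). Hdc measured 2.11, 2.73 and 3.38 CPM in the controls, 1.76, 1.55 and 2.96 CPM on day 1, and 2.73, 2.89 and 2.51 CPM on day 6. Its log2 fold changes were -0.40 ± 0.25 and -0.03 ± 0.25 (edgeR, adjusted p = 0.814 and 0.996), opposite in sign on day 1 to those of the proteases. Tpsab1, Fcer1a and Ms4a2 had 2 to 14 counts per DRG library and were not tested there.

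**Figure D4:**
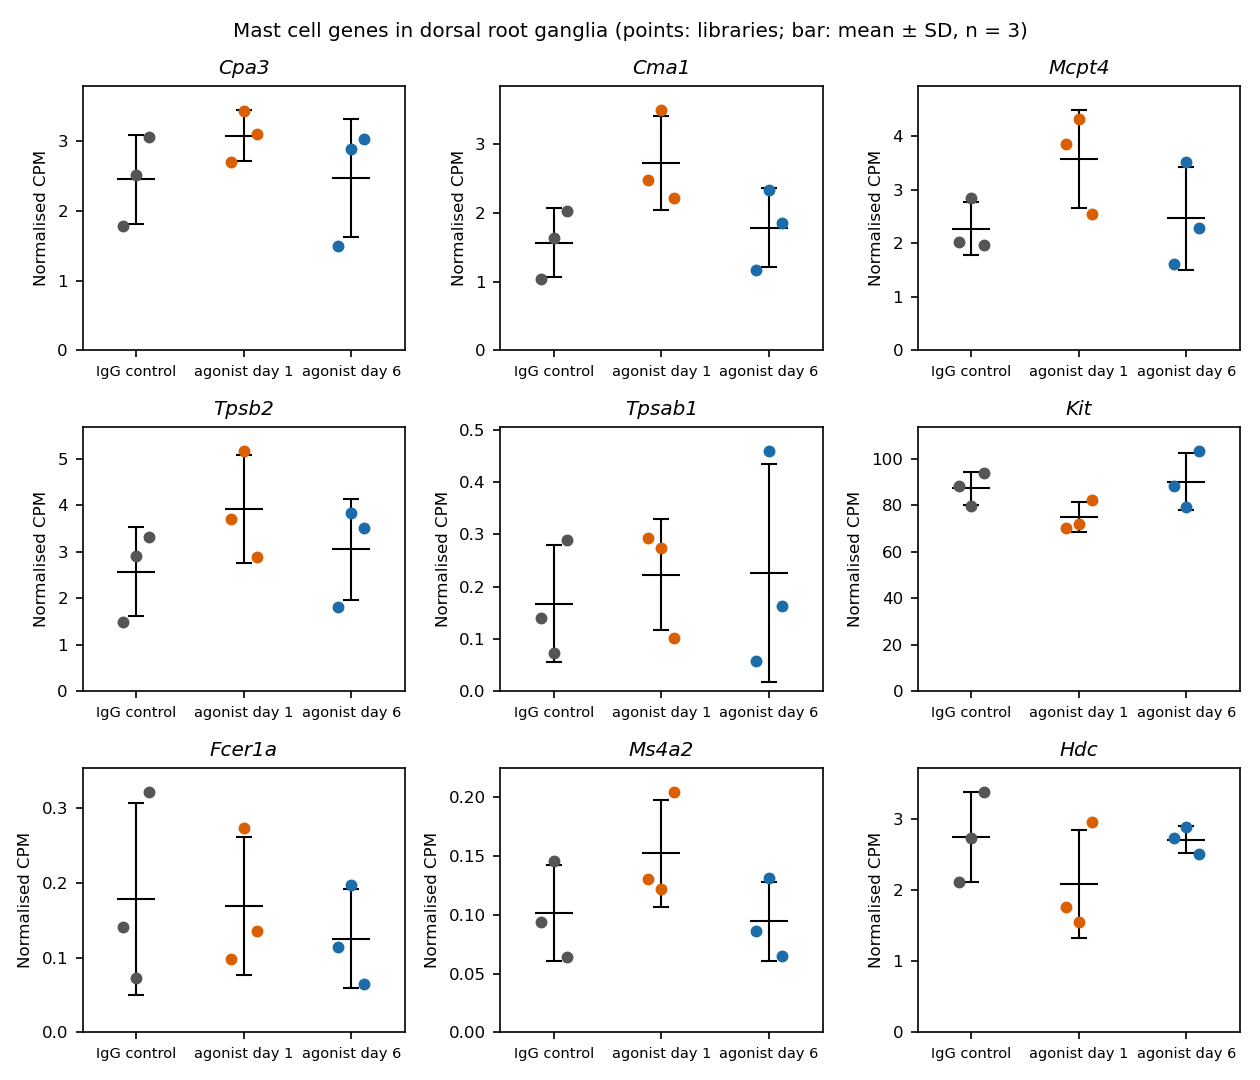
Normalised CPM of the 9 genes in the 9 DRG libraries (points), with the mean and SD of 3 libraries per group. Cma1 lies above the controls in all 3 day-1 libraries, Kit is lowest in day-1 libraries 1 and 2, and Tpsab1, Fcer1a and Ms4a2 stay below 0.5 CPM.

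Of the 6 genes tested in DRG, edgeR called 0 on day 1 beside 0.168% of 15461 genes, 0 on day 6 beside 0% and 0 between the days beside 0.103%. limma voom called 0 of the 6 in all 3 comparisons, beside 0.233%, 0% and 0.129% of all genes, and DESeq2 called 0 beside 0.847%, 0.0129% and 0.679%. At an unadjusted p under 0.05 there was 1 on day 1 (Cma1) beside 7.40% of all genes, 0 on day 6 beside 3.60%, and 1 between the days (Kit) beside 6.83%. Groups did not overlap for Cma1 on day 1, where 7.55% of all genes were higher without overlap. The median log2 fold change of the 6 was 0.46 on day 1 and 0.08 on day 6, with a median of all genes of -0.00111 and 0.000112.

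The difference between the responses of paw and DRG was tested in the fit of both tissues. That fit took the paw and DRG libraries as independent, although the labels do not say whether both tissues came from the same mice. On day 6 the response of Cpa3 was larger in paw by a log2 value of 0.86 ± 0.51 (edgeR, adjusted p = 0.788), and those of Cma1 and Mcpt4 by 0.50 ± 0.47 and 0.46 ± 0.47. On day 1 the differences of these 3 genes were 0.21 ± 0.50, -0.03 ± 0.44 and 0.10 ± 0.47. No difference between the tissues was thus detected for them, and the standard errors leave room for differences of about the size of the responses themselves. On both days edgeR called 0 of the 9 genes, with 0 at an unadjusted p under 0.05 (9.68% of all genes on day 1 and 7.73% on day 6), where it called 0% and 0.498% of 16461 genes. limma voom also called 0 of the 9, beside 0% on day 1 and 0.419% on day 6, and so did DESeq2, beside 0.364% and 1.42%.

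**Figure D5:**
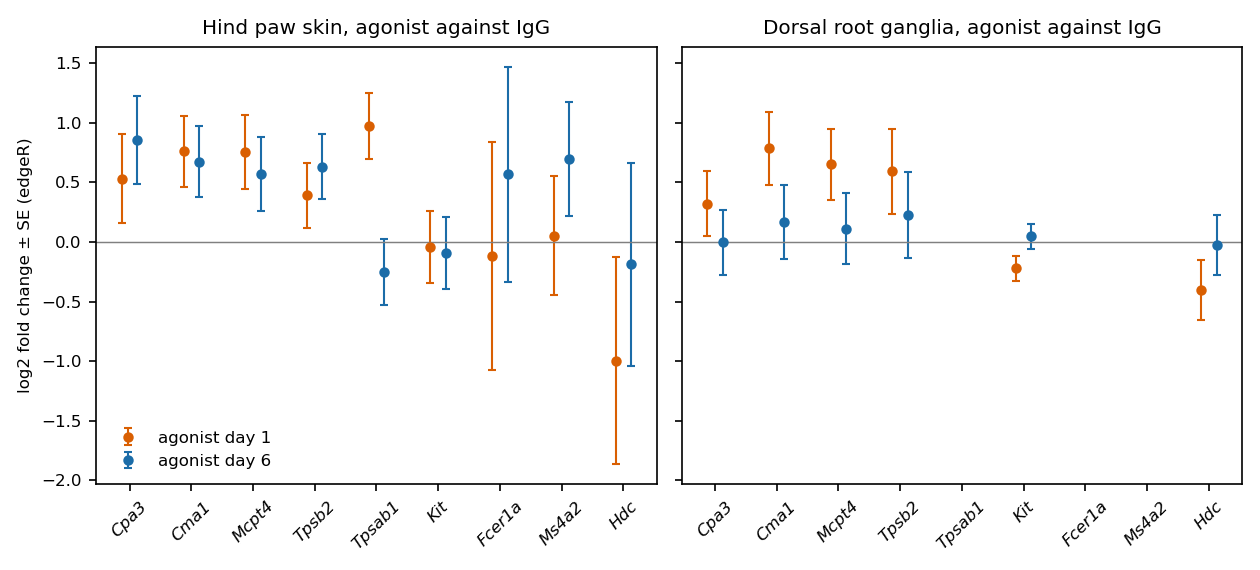
The log2 fold change of each gene against the IgG controls with its SE (edgeR), on day 1 and day 6, in paw (left) and DRG (right); genes not tested in DRG have no point. In both tissues Cma1, Mcpt4, Tpsb2 and Cpa3 lie above 0 on day 1 and Kit and Hdc below, and none passed the adjusted threshold of 0.05.

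Spinal cord held almost no mast cell protease transcript. Over its 6 libraries Tpsab1 had 0 counts, Cma1 had 1 and Mcpt4 had at most 2 in a library, where 3 counts, the limit that a count of 0 allows, correspond to 0.115 to 0.190 CPM. Cpa3 had 1, 4 and 0 counts on day 1 and 17, 4 and 0 on day 6. Mrgprb1 and Mrgprb2 had 0 counts in all 6. These floors cover counting error only, and only Kit and Hdc passed the filter on low counts.

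Kit and Hdc, which are not restricted to mast cells, were counted in every spinal cord library. Kit measured 33.7, 34.0 and 29.4 CPM on day 1 and 37.3, 24.0 and 37.3 CPM on day 6, with overlap and a log2 fold change by edgeR of 0.02 ± 0.17 (adjusted p = 0.978). Hdc measured 4.20, 4.98 and 3.78 CPM on day 1 and 7.46, 5.26 and 7.83 CPM on day 6. Every day-6 library lay above every day-1 library, and the log2 fold change was 0.66 ± 0.19 (edgeR, adjusted p = 0.463). Without day-6 library 2, the lowest of its group, it was 0.82 with an adjusted p of 0.0303 by edgeR. Over the alternatives that kept every library the adjusted p of Hdc ranged from 0.113 to 0.852, and with meningeal genes as a covariate the log2 fold change was 0.51. Of the 2 genes, edgeR called 0 beside 0% of 15096 genes, with 1 (Hdc) at an unadjusted p under 0.05 beside 9.70%, and limma voom and DESeq2 called 0 beside 0% and 0.431% of all genes. Hdc was the only one of the 2 whose groups did not overlap, and 8.17% of all genes were higher on day 6 without overlap.

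The genes around the mast cell genes were counted by role, from lists chosen with earlier results of these data known. Of 19 other mast cell genes tested in paw, edgeR called 0 on day 1 (1 at an unadjusted p under 0.05, and 0 by limma voom and DESeq2) and 1 higher on day 6 (4 at an unadjusted p under 0.05, and 2 each by limma voom and DESeq2). Over all genes, 0.706% were called by edgeR on day 6, 1.00% by limma voom and 3.33% by DESeq2. On day 1 these shares were 0.00654%, 0.00654% and 1.37%. At the unadjusted p, the shares of all genes were 10.6% on day 1 and 9.74% on day 6. The gene called was Alox5, the lipoxygenase that starts leukotriene synthesis, at 13.6, 11.5 and 12.5 CPM in the controls and 28.3, 30.1 and 21.3 CPM on day 6, with a log2 fold change by edgeR of 1.08 ± 0.15 (adjusted p = 0.0255). Hpgds, a prostaglandin D synthase, had 0.85 ± 0.17 (edgeR, adjusted p = 0.0767). In paw on day 6 edgeR also called 6 of 10 macrophage markers higher, and the part of macrophages in Alox5 and Hpgds was not tested. Gata2, the transcription factor named above, had the smallest p of the list on day 1, with 5.72, 9.13 and 5.89 CPM in the controls, 11.3, 10.6 and 10.4 CPM on day 1 and a log2 fold change by edgeR of 0.64 ± 0.19 (adjusted p = 0.368). In DRG edgeR, limma voom and DESeq2 called 0 of 15 on day 1 and day 6. At an unadjusted p under 0.05 there were 3 and 2 of the 15, beside 7.40% and 3.60% of all genes.

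Among 16 genes of IgE receptor signalling, 3 were called higher in paw on day 6. They were the kinase Btk, at 2.30, 2.51 and 2.00 CPM in the controls and 7.09, 7.13 and 4.60 CPM on day 6 (log2 fold change 1.47 ± 0.23, edgeR, adjusted p = 0.034), the adaptor Lat2 (0.73 ± 0.12) and the inositol phosphatase Inpp5d (0.97 ± 0.17). limma voom called 5 and DESeq2 called 8 of the list, where edgeR called 0.706%, limma voom 1.00% and DESeq2 3.33% of all genes. On day 1 edgeR and limma voom called 0 of the 16, beside 0.00654% of all genes each, and DESeq2 called 1 beside 1.37%. At an unadjusted p under 0.05 there were 2 of the 16 on day 1 beside 10.6% of all genes, and 9 on day 6 beside 9.74%. Btk, Lat2 and Inpp5d are known from other myeloid cells too. On day 6 in paw, 6 of 10 macrophage markers were called higher. Their summed level went from 211 to 306 CPM in the controls to 560 to 869 CPM on day 6. The summed level of the 5 mast cell proteases overlapped the controls through control 1 alone. Singly, Tpsb2 lay above the controls and Tpsab1 below them without overlap. The part of macrophages in the calls of the IgE receptor signalling genes was not tested. In DRG edgeR, limma voom and DESeq2 called 0 of the 16 on either day. At an unadjusted p under 0.05 there were 0, beside 7.40% and 3.60% of all genes.

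The growth signals of mast cells showed no call in paw by edgeR. Kitl, the ligand of Kit, measured 38.9, 53.3 and 55.1 CPM in the controls, 32.2, 47.3 and 42.2 CPM on day 1 and 48.4, 43.5 and 41.2 CPM on day 6. Of 13 genes tested, 2 on day 1 and 5 on day 6 had an unadjusted p under 0.05, limma voom called 0 on both days and DESeq2 called 2 and 3. Over all genes the shares were 10.6% and 9.74% at the unadjusted p, and 1.37% and 3.33% by DESeq2. The smallest p on day 1 was that of Csf2rb2, a receptor chain for interleukin 3 in the mouse, which was at 1.07 ± 0.18 on the log2 scale (edgeR, adjusted p = 0.276). In DRG Csf2rb2 was called higher on day 1, at 4.98, 5.21 and 4.02 CPM in the controls, 17.6, 14.1 and 11.1 CPM on day 1 and 5.22, 6.29 and 5.02 CPM on day 6. It had a log2 fold change of 1.59 ± 0.18 on day 1 and -1.37 ± 0.17 from day 1 to day 6 (edgeR, adjusted p = 0.00406 and 0.0127), and edgeR and limma voom called no other of the 12 genes tested there. DESeq2 called 2 of the 12 in each of these comparisons. Over all genes the shares called on day 1 were 0.168% by edgeR, 0.233% by limma voom and 0.847% by DESeq2. From day 1 to day 6 they were 0.103%, 0.129% and 0.679%. At an unadjusted p under 0.05 there were 4 and 5 of the 12, beside 7.40% and 6.83% of all genes.

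Of the genes that store, break down or sense histamine, 4 were tested in paw and 5 in DRG, and edgeR, limma voom and DESeq2 called 0 in every comparison of day 1 or day 6 with the controls. At an unadjusted p under 0.05 there was 1 in DRG on each day, the receptor Hrh1, beside 7.40% and 3.60% of all genes. Hrh1 measured 4.13, 3.53 and 4.25 CPM in the controls, 5.51, 5.69 and 5.34 CPM on day 1 and 5.08, 5.21 and 5.97 CPM on day 6. Both agonist groups lay above the controls, with log2 fold changes of 0.47 ± 0.13 and 0.45 ± 0.13 (edgeR, adjusted p = 0.299 and 0.995). On day 1, 7.55% of all genes were higher without overlap, and the day-6 share was not counted.

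Likeness to the mast cell genes across paw libraries was measured as the root mean square difference of centred log2 CPM from the mean profile of the 7 genes with at least 1 CPM, over 9 libraries. Among 15287 genes, the 6 nearest that are not among the 9 were Cyp11a1 (0.184), Mrgprb1 (0.187), Mybl2 (0.209), Slc15a3 (0.229), Slc18a2 (0.244) and 6230427J02Rik (0.249). Mrgprb1 is known from mast cells, and Slc18a2 loads histamine into granules. Of the 7 genes themselves, Mcpt4, Tpsb2 and Cma1 ranked 4, 5 and 7 and Cpa3 ranked 96, whereas Kit, Tpsab1 and Hdc ranked 7771, 10378 and 14145. The 9 libraries differed in depth and muscle content, and these distances carry no test. In DRG the mean profile of the 6 genes was led by N4bp3 (0.090), Ahdc1 (0.106) and Sik1 (0.114). Cpa3 ranked 29 of 15461 genes by this measure, and the other 5 ranked between 5076 and 13653.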

How the data were processed

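Gene counts came from poly(A)-selected, stranded, 50-base single-end libraries made from about 500 ng RNA. The deposited values are raw counts per gene symbol. The authors used bcl2fastq, TopHat2, HTSeq and mm9, per the submitters' processing notes; versions, the annotation and the strand setting are not given in the sources used here. The 5 summary lines of each file were removed. No replicates had identical counts.

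Within each tissue, counts were scaled by TMM and filtered with filterByExpr (edgeR 4.0.16, R 4.3.3). The quasi-likelihood test (two-sided, all groups of a tissue in one fit) was adjusted by Benjamini-Hochberg over all tested genes (15287 for paw, 15461 for DRG, 15096 for spinal cord), with a threshold of 0.05. Paw and DRG were compared in one fit of 18 libraries, with group as the only factor and no pairing of tissues by animal. Alternatives used limma 3.58.1, DESeq2 1.42.0, other scalings, filters and covariates, a replicate block and leaving out each library. The script was tested on simulated data. Per-kilobase levels used GENCODE M21 transcript lengths, and figures used Python 3.11.15 and matplotlib 3.10.9. Log2 CPM for likeness used a prior count of 2.

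The genes named are the 9 mast cell genes, those called in other lists or, where none was called, up to 2 with the smallest p, and the 6 nearest by likeness. Members and lists were chosen with earlier results of these data known.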

Additional observations from a re-analysis of the deposited data

How the results depend on the processing

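Of 1166 log2 fold changes recomputed for the mast cell genes, 1082 kept their direction and their side of the threshold, 3 passed it, and 81 changed sign. The 3 were Tpsab1 for paw day 6 against day 1 by limma voom and by DESeq2, which made 1 gene called in place of 0 with each, and Hdc in spinal cord without day-6 library 2; leaving out single libraries gave 0 to 1 called there. For all genes, DESeq2 against edgeR called 209 against 1 for paw day 1, 509 against 108 for paw day 6, 737 against 157 for paw day 6 against day 1, 131 against 26 for DRG day 1 and 105 against 16 between the DRG days. The causes were not tested.

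The sign changes were in values within about 1 SE of 0. With limma voom, Kit in paw was 0.035 on day 1, 0.085 on day 6 and 0.050 between the days, Fcer1a in paw was 1.08 on day 1, Cpa3 and Hdc in DRG on day 6 were 0.038 and 0.018, the tissue difference was 0.076 for Cma1 and 0.82 for Fcer1a on day 1 and 0.082 for Kit on day 6, and Fcer1a was -0.10 for paw control against DRG control. With the muscle covariate, Kit was 0.17 and Fcer1a 1.29 in paw on day 1, Kit was 0.0034 in paw on day 6 and Cpa3 was 0.072 in DRG on day 6. With upper-quartile scaling, Kit was 0.014 between the paw days and Cpa3 was 0.011 in DRG on day 6. With the meningeal covariate, Kit in spinal cord was -0.13.

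Same-numbered libraries of a tissue deviated from their group means with correlations of -0.692 to 0.317. Different-numbered libraries and libraries of different tissues were not compared, so these values cannot decide whether the numbers pair libraries. With the replicate block, 0 of the genes were called within tissues and in the tissue differences, and 7 were called for paw control against DRG control. With the block, Tpsab1 between the paw days was -1.19 (edgeR, adjusted p = 0.167), Hdc in DRG on day 6 was 0.016, Kit in spinal cord was -0.0053, and the day-1 tissue difference of Fcer1a was 0.11.

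Leaving out single libraries gave these ranges where the sign changed. In paw on day 1 they were -0.65 to 1.34 for Fcer1a, -0.20 to 0.11 for Kit and -0.36 to 0.44 for Ms4a2, and on day 6 -0.038 to 2.05 for Fcer1a, -1.70 to 0.58 for Hdc and -0.31 to 0.19 for Kit. Between the paw days they were -0.31 to 0.14 for Cma1, -0.027 to 0.54 for Cpa3, -0.70 to 1.23 for Hdc, -0.26 to 0.24 for Kit and -0.45 to 0.068 for Mcpt4. In DRG on day 6 they were -0.065 to 0.40 for Cma1, -0.18 to 0.26 for Cpa3, -0.18 to 0.15 for Hdc, -0.067 to 0.13 for Kit, -0.23 to 0.34 for Mcpt4 and -0.038 to 0.50 for Tpsb2. Kit in spinal cord ranged from -0.088 to 0.20. The day-1 tissue differences ranged from -0.27 to 0.34 for Cma1, -0.017 to 0.70 for Cpa3, -0.83 to 1.44 for Fcer1a, -1.003 to 0.17 for Hdc, -0.13 to 0.46 for Mcpt4, -0.12 to 0.97 for Tpsab1 and -0.44 to 0.055 for Tpsb2. Those of day 6 ranged from -1.68 to 0.60 for Hdc, -0.37 to 0.14 for Kit and -1.33 to 0.40 for Tpsab1, and Fcer1a ranged from -0.56 to 1.69 for paw control against DRG control. Depth limits Fcer1a, Ms4a2 and Tpsab1 most, with at most 14 counts per DRG library.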

Other observations

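The following genes were chosen after their values were seen. Across the 9 paw libraries the gene nearest to Hdc by the likeness measure was Slfn4, at 5.76, 10.6 and 4.17 CPM in the controls, 5.67, 3.12 and 3.48 CPM on day 1 and 3.46, 10.4 and 1.86 CPM on day 6. Slfn4 was highest in control 2 and day-6 library 2, the libraries with the highest Hdc. Mmp9, a protease abundant in neutrophils, came next, at 11.2, 11.7 and 1.57 CPM in the controls, 5.50, 3.25 and 2.87 CPM on day 1 and 2.72, 13.4 and 1.49 CPM on day 6.

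The gene nearest to Tpsab1 in paw was Tnfrsf12a, which belongs to the tumour necrosis factor receptors, at 46.5, 50.6 and 48.4 CPM in the controls, 97.3, 71.3 and 46.3 CPM on day 1 and 30.7, 36.2 and 41.9 CPM on day 6. Its day-6 libraries lay below all controls, and day-1 library 1 was the highest, as for Tpsab1.

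In spinal cord, day-6 library 1 held the 17 Cpa3 counts. The same library had 72 counts of the basophil protease Prss34, 205 of the myeloid peroxidase Mpo and 910 of the red cell gene Alas2, against 4 to 6, 11 to 18 and 45 to 140 on day 1. Its Hdc count was 164. The part of blood or marrow cells in these values was not tested.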
